A study of Mus musculus with 36 samples.

Results

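The genes described here set how much pyruvate enters the mitochondrial pyruvate dehydrogenase complex: the kinases Pdk1, Pdk2, Pdk3 and Pdk4, the phosphatases Pdp1 and Pdp2, and the complex subunits Pdha1, Pdhb and Dlat. They were chosen by gene symbol, as every probe whose gene name on the array equals one of these 9 names. All 9 genes were on the array, with 20 probes among the 37325 genes and 56605 probes it carries. All 9 genes and all 20 probes passed the filter on dim probes, which kept 24251 genes and 36550 probes.

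The pyruvate dehydrogenase complex turns pyruvate into acetyl-CoA and so commits carbon from glucose, lactate and alanine to the citrate cycle or to fat synthesis. Its kinases phosphorylate the alpha subunit encoded by Pdha1 and switch the complex off, and its phosphatases remove the phosphate and switch it on again. In liver, Pdk4 is known as a fasting gene under the control of PPARalpha, FoxO1 and glucocorticoids, Pdk2 is the abundant kinase, and closing the complex in fasting spares pyruvate for glucose synthesis. The arrays measured transcripts only, and neither phosphorylation nor enzyme activity.

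Livers came from 36 male mice on a C57Bl/6J background, 6 in each of 6 groups, with 1 one-colour array per liver. AAKO mice lacked ATGL, the triglyceride lipase encoded by Pnpla2 that starts the breakdown of stored fat, in white adipose tissue. CTRL mice were their controls. Each genotype had a fed group, a group without food for 24 h, and a fed group dosed with CL316243. This compound activates the beta 3 adrenergic receptor, which triggers fat breakdown in adipocytes, and was given by gavage at 3 mg/kg at ZT10 in 0.5% carboxymethyl cellulose. All mice were killed at ZT16, during the dark phase. The Cre line and the age of the mice are not given in the sources used here, and a gavage is described only for the mice that received CL316243. The fed groups came from one experiment and the fasted and CL316243 groups from another, so in a comparison of either with fed mice the condition and the experiment cannot be told apart. The comparison of the genotypes within a condition, and that of fasted with CL316243 mice, lie within 1 experiment.

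The count of probes well above background ran from 33130 to 37200 over the arrays. Each value below is log2 of the processed signal minus log2 of that array's 75th percentile, so a level of 0 equals that percentile, and levels are not compared between probes. Differences are log2 differences ± standard error from a limma fit to all 36 arrays with the wash batch as a term, and a gene is called at a Benjamini-Hochberg adjusted p under 0.05 over all 24251 genes. Where a second or later probe of a gene is described, p was adjusted over all 36550 probes. The 8 hepatocyte markers were well above background on every array. Liver Pnpla2 itself gave AAKO minus CTRL differences of -0.45 (adjusted p = 0.656) in fed, 1.28 (9e-07) in fasted and 0.66 (0.00926) in CL316243 mice. Since the deletion is in adipose tissue it does not check the labels here. Libraries that stood apart are described next.

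CTRL fasted replicate 2 lay at 81.3 on the principal component that held 41.9% of the variance, where the other CTRL fasted livers lay between 16.8 and 29 and the AAKO fasted livers between 103 and 111. AAKO CL316243 replicate 6 carried skeletal muscle transcripts. Its Acta1 level was 4.88 against -7.16 to -4.42 on the other 35 arrays, its Ckm level was 1.45 against -8.19 to -6.62, and its Tnnt3 level was 5.70 against -2.92 to -2.07. Myh4 at -3.34 and Myl1 at -3.54 were within the range of the other arrays. The mean over the 5 muscle markers was 1.03 there and at most -4.36 on every other array. For the kinase, phosphatase and subunit genes, some of the results that use either liver are also given without it. Results for the lists of regulators and neighbouring genes below are given from all livers only. Among the comparisons of the list genes picked as highest or lowest, 4 were weaker without both livers and 88 stayed the same.

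The probes are 60 bases long, and 30 bases of each of the following are shown because the results turn on which probe reads a gene. Positions are those of the array's design, in mouse build mm9, and each matches the strand of its gene. The Pdk4 probe lies at chr6:5433441-5433500 on the minus strand and the Pdk2 probe at chr11:94887669-94887728 on the minus strand. Pdk1 probe 1 lies at chr2:71739926-71739985 and Pdk1 probe 4 at chr2:71722122-71722181, both on the plus strand. Pdp2 probe 1 lies at chr8:107119568-107119627 and Pdp2 probe 2 at chr8:107120490-107120549, both on the plus strand. Dlat probe 1 lies at chr9:50442953-50443012 and Dlat probe 2 at chr9:50445621-50445680, both on the minus strand. Capitals mark the run of alternating T and G in Pdp2 probe 1, of which 37 bases in a row are in the probe; its bases 11 to 40 are shown, and bases 1 to 30 of the others. Which exon or untranslated region each probe lies in was not analysed here.
Pdk4: tatgaacccatgggagactttaaactcttg
Pdk2: acaagtgactcacccctaggacagccctat
Pdk1 probe 1: gtggcatttattcagtgtattgcacttact
Pdk1 probe 4: atacaggatgtaaggtgagtgtcttcccag
Pdp2 probe 1: gcacttttctataTGTGTGTGTGTGTGTGT
Pdp2 probe 2: gtcagcacttcagccatcgtcggcaaggct
Dlat probe 1: aatatgcttgcttaccacaagggcacatca
Dlat probe 2: ctccaacttagggatgtttggaattaagaa

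Across the set, the genotype made no called difference in fed mice and several in fasted and CL316243 mice. In fed mice 0 of 9 genes were called, where 0.0783% of all genes were, and 0 of 9 had an unadjusted p under 0.05 in limma, against 1644 of all genes. In fasted mice 4 of 9 were higher in AAKO and 0 lower, namely Pdk2, Pdk3, Pdp2 and Dlat, where 49.3% of all genes were called and 21.3% were called higher. The median AAKO minus CTRL difference of the 9 genes in fasted mice was 0.53, against -0.04 over all genes. In CL316243 mice Pdp1 and Pdp2 were higher and Pdk1 lower, 3 of 9, where 24.7% of all genes were called. In both counts Pdp2 was read by its probe 1, which holds the run of T and G. Its probe 2 gave 1.09 in fasted mice, called, but -0.21 in CL316243 mice, not called. These are whole-liver samples, in which more or fewer cells of a type and more or less RNA per cell cannot be told apart. Among markers of other cells, 2 of 5 sinusoidal endothelial, 2 of 5 stellate and 2 of 4 leukocyte genes were higher in AAKO fasted livers (1 leukocyte gene lower), 2 of 4 cholangiocyte genes were lower and 0 of 5 Kupffer cell genes were called; the mean over the leukocyte markers ran from -0.75 to 1.46 in AAKO and from -2.67 to 1.12 in CTRL fasted livers. Their part in the differences was not tested. The shares of called members lie near those of all genes, so the counts do not set these genes apart from the rest of the array.

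Fasting against fed called 2 of 9 genes in CTRL mice, Pdk4 and Dlat, both higher, where 43.3% of all genes were called. In AAKO mice it called 5 of 9, with Pdk4, Pdk2, Pdp2 and Dlat higher and Pdhb lower, where 63.5% of all genes were called. CL316243 against fed called 1 of 9 in CTRL mice, Pdk3 lower, against 23.3% of all genes, and 2 of 9 in AAKO mice, Pdp1 higher and Pdk1 lower, against 31.4%. Fasting against CL316243 called 3 of 9 in CTRL mice (36.8% of all genes) and 6 of 9 in AAKO mice (59.9%). The effect of fasting differed between genotypes for 2 of 9, Pdk2 and Pdk3 (33.9% of all genes), and the effect of CL316243 for 0 of 9 (10.9%), with 2 of 9 at an unadjusted p under 0.05. The Pdk3 interaction lost its call in each wash batch alone, and under normexp background correction with an offset of 50, which shrinks differences of dim probes. The step from CL316243 to fasting differed between genotypes for 3 of 9, with Pdk2 and Dlat positive and Pdp1 negative (32.3% of all genes). These counts read Pdp2 by probe 1, and by probe 2 it was called in further comparisons. Probe 2 gave 1.15 for the effect of fasting between genotypes and 1.30 for the step from CL316243 to fasting. It also gave 0.45 for CL316243 minus fed in CTRL mice, and -0.43 and 0.87 for fasted minus CL316243 in CTRL and AAKO mice. Comparisons that share a group of mice, such as AAKO minus CTRL in fasted mice and fasting minus fed in AAKO mice, are not independent of each other.

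Pdk4, the kinase isoform known for its rise in fasting, rose more than any other of the 9 genes in both genotypes, about 10-fold. In CTRL mice the lowest, median and highest levels were -1.73, -1.34 and -0.11 when fed and 0.66, 2.27 and 3.77 when fasted. In AAKO mice they were -1.19, -0.57 and 0.31 when fed and 1.95, 2.58 and 4.34 when fasted. Every fasted liver of either genotype was above every fed liver. Fasting raised Pdk4 by 3.47 ± 0.48 in CTRL mice (11.1-fold, adjusted p = 5.68e-07) and by 3.36 ± 0.48 in AAKO mice (10.3-fold, adjusted p = 3.45e-07). The difference between these responses was -0.11 ± 0.68 (95% interval -1.51 to 1.28, adjusted p = 0.92), an interval that leaves room for a change of more than 2-fold either way. Without CTRL fasted replicate 2 the CTRL response was 3.16 (adjusted p = 3.31e-06) and the difference between the responses was 0.20 (adjusted p = 0.843).

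The genotype comparison of Pdk4 within each condition passed no test. AAKO minus CTRL was 0.68 ± 0.48 in fed mice (adjusted p = 0.825), 0.57 ± 0.48 in fasted mice (95% interval -0.42 to 1.55, adjusted p = 0.352) and 0.20 ± 0.49 in CL316243 mice (adjusted p = 0.807). The ranges of the genotypes overlapped in all 3 conditions. Without AAKO CL316243 replicate 6 the sign after CL316243 turned, to -0.24 (adjusted p = 0.754). In fasted mice the wash batches gave opposite signs, 1.54 in batch 1 and -0.41 in batch 2, each from 3 livers per genotype. Leaving out CTRL fasted replicate 2 gave 0.88 (adjusted p = 0.125).

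No called rise of Pdk4 followed CL316243. CL316243-treated CTRL livers had lowest, median and highest levels of -2.37, -1.58 and -1.35, and AAKO livers -2.09, -1.84 and 0.94. All but 1 of the 12 treated livers lay at or below -1.35, and the exception was AAKO CL316243 replicate 6 at 0.94, the liver with muscle transcripts; Pdk4 is abundant in skeletal muscle, and the part of muscle in that value was not tested. CL316243 minus fed was -0.54 ± 0.48 in CTRL mice (adjusted p = 0.465) and -1.02 ± 0.49 in AAKO mice (adjusted p = 0.111). Without AAKO CL316243 replicate 6 the AAKO difference was -1.47 (adjusted p = 0.0101), so leaving out that liver turns it into a called fall. Fasted livers exceeded CL316243 livers by 4.02 ± 0.48 in CTRL mice (16.2-fold, adjusted p = 7.66e-08) and by 4.38 ± 0.49 in AAKO mice (20.8-fold, adjusted p = 2.96e-09). In the order of group means, AAKO fasted and CTRL fasted differed by 0.57 and CTRL fed, AAKO CL316243 and CTRL CL316243 followed one another by 0.30 and 0.24, each less than the larger SD of the pair.

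Pdk2, the widely expressed hepatic kinase, stood highest in the fasted AAKO livers. Its lowest, median and highest levels were 3.12, 3.43 and 3.58 in AAKO fasted livers and 2.47, 2.60 and 2.91 in CTRL fasted livers. The ranges did not overlap, and AAKO fasted livers also lay above both fed groups, whose levels ran from 2.64 to 3.06 in CTRL and from 2.21 to 2.89 in AAKO mice. AAKO minus CTRL in fasted mice was 0.77 ± 0.13 (1.7-fold, adjusted p = 1.15e-05), with 0.76 and 0.78 in the wash batches. Fasting changed Pdk2 by -0.18 ± 0.13 in CTRL mice (adjusted p = 0.276) and raised it by 0.80 ± 0.13 in AAKO mice (adjusted p = 3.36e-06). The responses differed by 0.98 ± 0.19 (adjusted p = 0.000109). CL316243 livers of both genotypes stayed between 2.12 and 3.20, with AAKO minus CTRL at 0.10 ± 0.13 (adjusted p = 0.626). The step from CL316243 to fasting differed between genotypes by 0.67 ± 0.19 (adjusted p = 0.00596).

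**Figure D1:**
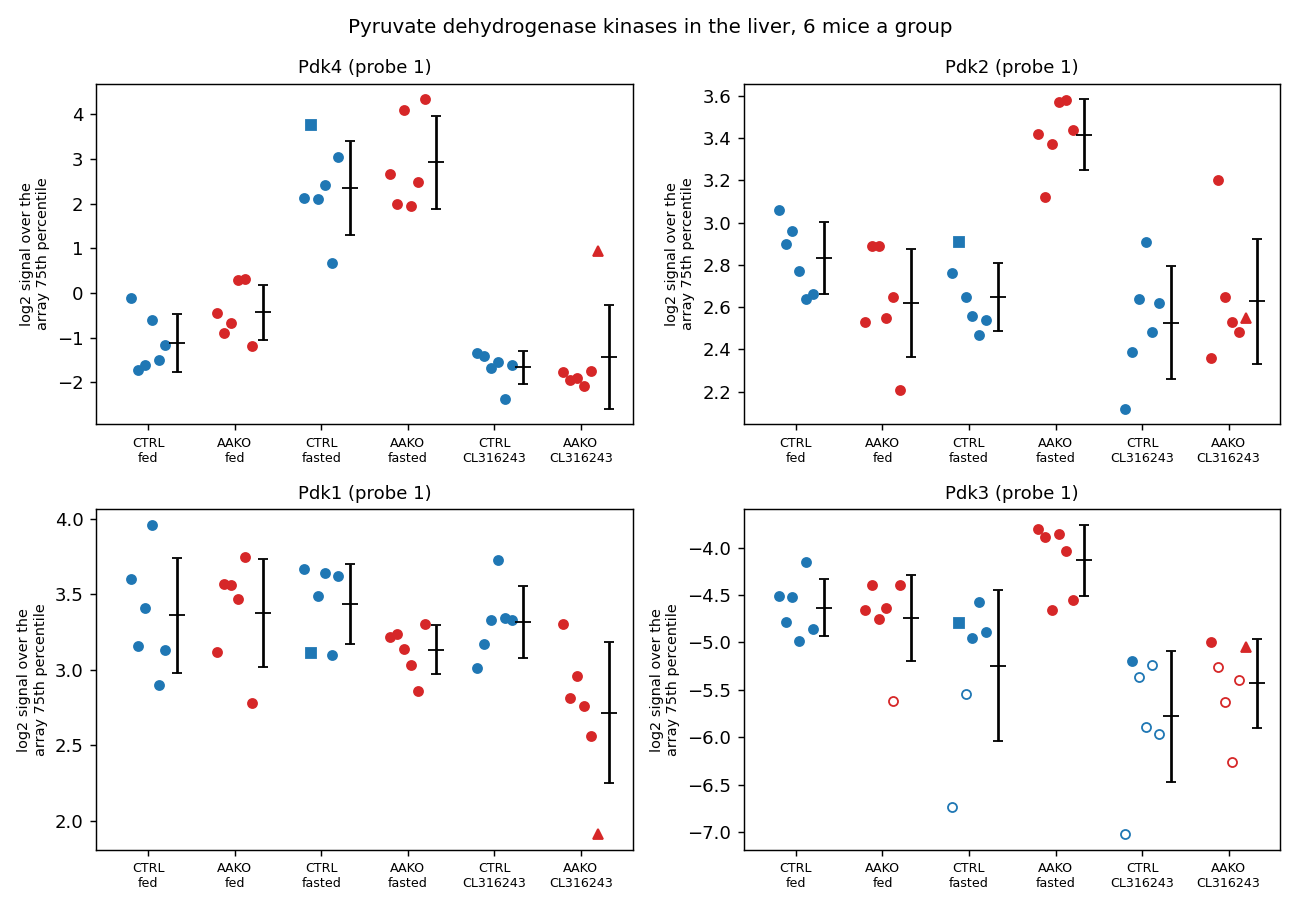
Levels of the kinase probes in each of the 36 livers (log2 relative to the array's 75th percentile), by group, with bars for the group mean ± SD of 6 livers; CTRL in blue and AAKO in red, open symbols not well above background, the square CTRL fasted replicate 2 and the triangle AAKO CL316243 replicate 6. Pdk4 in fasted livers lies between 0.66 and 4.34, above every fed liver, and Pdk2 is highest in AAKO fasted livers, at 3.12 to 3.58.

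Pdk1, a kinase isoform best known as a HIF-1 target, was lower in AAKO than in CTRL livers after CL316243 when read by probe 1. Probe 1 had lowest, median and highest levels of 1.91, 2.78 and 3.30 in AAKO CL316243 livers and 3.01, 3.33 and 3.73 in CTRL CL316243 livers. The ranges overlapped, and the lowest value was that of replicate 6, the liver with muscle transcripts. AAKO minus CTRL after CL316243 was -0.63 ± 0.18 (adjusted p = 0.0112), and -0.46 (adjusted p = 0.0452) without that liver. The wash batches gave -0.77 and -0.36, neither called on its own (adjusted p = 0.0673 and 0.44). The call of probe 1 was also lost when only the groups compared were fitted. Probes 2 and 3 gave -0.51 and -0.73, both called, but neither was called without that liver (adjusted p = 0.106 and 0.121). Probes 4 and 5 gave -0.70 and 0.01, neither called. The interaction with the genotype was not called for probe 1 (-0.64 ± 0.26, adjusted p = 0.114). In AAKO mice CL316243 lowered probe 1 by 0.68 against fed mice on the log2 scale (adjusted p = 0.00442). Fasted minus CL316243 in AAKO mice, 0.44 ± 0.18 (adjusted p = 0.0388), lost its call without replicate 6 (0.27, adjusted p = 0.156) and without any of 5 other single livers.

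The probes of Pdk1 did not move together in fasted mice. Probe 4, which the array assigns to an Ensembl transcript of Pdk1 and not to the RefSeq one, had lowest, median and highest levels of -1.34, -1.20 and -0.70 in AAKO fasted livers and -2.94, -2.40 and -1.56 in CTRL fasted livers. These ranges did not overlap, and AAKO minus CTRL was 1.26 ± 0.31 (adjusted p = 0.000981). Probe 1 gave -0.31 ± 0.18 in the same comparison (adjusted p = 0.168). Fasting in AAKO mice raised probe 4 by 1.87 ± 0.31 (adjusted p = 3.24e-06), and the fasting response differed between genotypes by 1.61 ± 0.44 (adjusted p = 0.00433). Probe 5, the most steady of the 5, ran from -1.56 to -0.95 over all 36 livers. So a statement about Pdk1 in fasted AAKO mice depends on the probe.

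Pdk3 was dim. Probe 1 was well above background on 24 of 36 arrays, with 6, 5, 4 and 6 of 6 in the CTRL fed, AAKO fed, CTRL fasted and AAKO fasted groups but 1 and 2 of 6 in the CTRL and AAKO CL316243 groups. Its lowest, median and highest levels were -4.66, -3.96 and -3.81 in AAKO fasted livers and -6.73, -4.92 and -4.57 in CTRL fasted livers. AAKO fasted livers were the brightest group and the ranges overlapped by a narrow margin. AAKO minus CTRL in fasted mice was 1.11 ± 0.31 (adjusted p = 0.00299) and the fasting interaction 1.22 ± 0.43 (adjusted p = 0.0279), which leaving out any of 3 livers, CTRL fed replicate 5, AAKO fed replicate 5 or CTRL fasted replicate 1, ended. CL316243 lowered probe 1 in CTRL mice by 1.14 against fed (adjusted p = 0.00644), where only 1 of 6 arrays was well above background. Background correction by normexp, with an offset of 50 added to each signal, gave smaller differences and ended the calls of probe 1. AAKO minus CTRL in fasted mice was then 0.11 (adjusted p = 0.222). Fasted minus CL316243 in AAKO mice was 0.01 (adjusted p = 0.86). An offset by itself shrinks the log2 differences of dim probes. Its part in these lost calls was not tested. In fasted mice the wash batches gave 0.63 (adjusted p = 0.108) and 1.59 (adjusted p = 0.0195). Probe 2, well above background on 13 of 36 arrays and on 0 of 6 in the CTRL CL316243 group, gave 0.56 ± 0.24 (adjusted p = 0.0582) for AAKO minus CTRL in fasted mice, and 0.66 (adjusted p = 0.0287) without CTRL fasted replicate 2. Its fasted level in CTRL mice was at least 1.18-fold above its CL316243 level, a lower bound set by the faintest signal well above background.

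Of the phosphatases, Pdp2 has probes that cannot be read alike. Probe 1 holds the TG run shown above; its mean level was 8.15, brighter than 99.7% of all probes. The array has 36 other tested probes, assigned to other genes, with a TG run of at least 24 bases. Their mean levels ran from 6.14 to 8.94 with a median of 7.97, where the median over all probes was -3.99. Their deviations from the group means correlated with those of Pdp2 probe 1 at a median r of 0.986 over the 36 arrays, while the deviations of the 2 Pdp2 probes correlated at 0.358. All 36 were called higher in AAKO than in CTRL fasted livers (median 0.64), as probe 1 was (0.59 ± 0.13, adjusted p = 0.000493). After CL316243 all 36 were higher in AAKO livers (median 0.53), and probe 1 gave 0.47 ± 0.14 (adjusted p = 0.00951). Probe 2, which has no such run, gave -0.21 ± 0.13 there (adjusted p = 0.277). The calls of Pdp2 counted above rest on probe 1, the brighter probe.

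**Figure D2:**
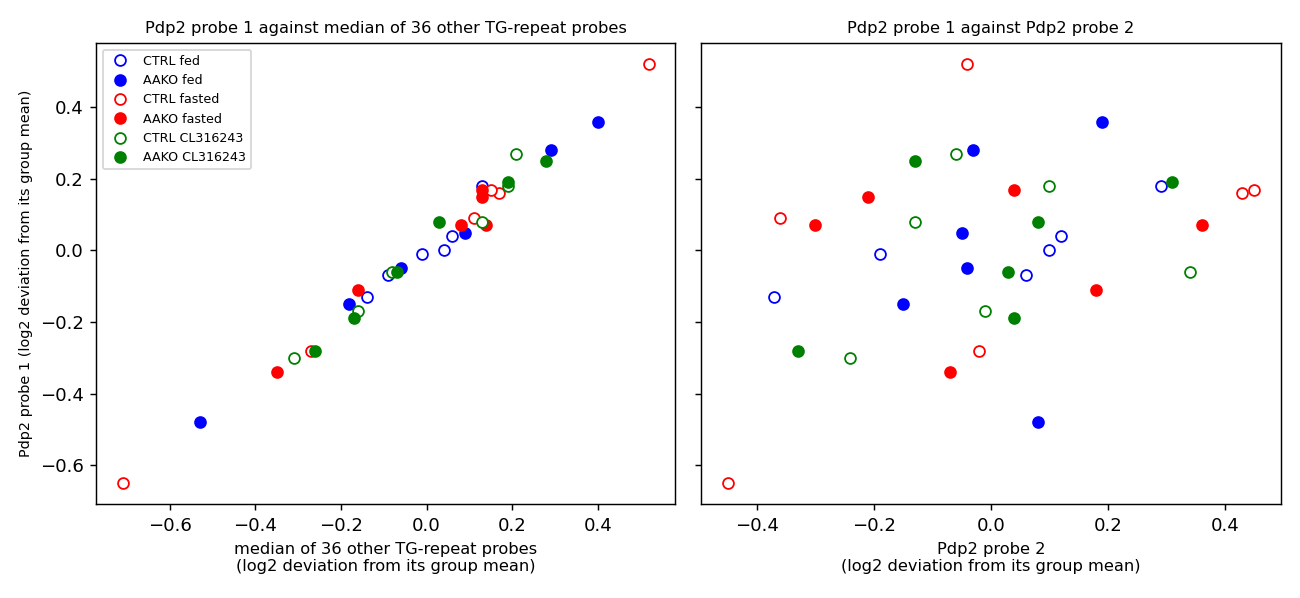
Deviation of each array from its group mean (log2), Pdp2 probe 1 on the vertical axis against the median of the 36 other TG-repeat probes (left) and against Pdp2 probe 2 (right); 1 point per liver, CTRL open and AAKO filled, fed in blue, fasted in red and CL316243 in green. Points follow a line on the left, where the median r with single repeat probes is 0.986, and scatter on the right, where r is 0.358.

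Read by probe 2, Pdp2, a phosphatase that reactivates the complex and is known to be insulin-sensitive, was raised in fasted AAKO livers. Its lowest, median and highest levels were 2.69, 2.97 and 3.34 in AAKO fasted livers and 1.44, 1.86 and 2.34 in CTRL fasted livers. The ranges did not overlap, and no liver of another group exceeded 2.67. AAKO minus CTRL was 1.09 ± 0.13 (2.13-fold, adjusted p = 3.57e-08). Fasting changed probe 2 by 0.02 ± 0.13 in CTRL mice (adjusted p = 0.923; -0.06 without CTRL fasted replicate 2) and raised it by 1.17 ± 0.13 in AAKO mice (adjusted p = 2.96e-09), and these responses differed by 1.15 ± 0.19 (adjusted p = 1.5e-05). CL316243 raised it by 0.45 ± 0.13 in CTRL mice (adjusted p = 0.012) and gave 0.30 ± 0.13 in AAKO mice (adjusted p = 0.0826). CTRL mice thus had less Pdp2 transcript when fasted than after CL316243 (-0.43 ± 0.13, adjusted p = 0.00967) and AAKO mice more (0.87 ± 0.13, adjusted p = 1.05e-06); the difference of these steps was 1.30 ± 0.19 (adjusted p = 3.2e-06).

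Pdp1, the other phosphatase, was higher in AAKO livers after CL316243, and both of its probes showed it. Probe 1 had lowest, median and highest levels of -2.88, -2.33 and -1.66 in AAKO CL316243 livers and -3.46, -3.17 and -2.99 in CTRL CL316243 livers, with no overlap. Probe 2 had -3.91, -3.39 and -3.22 against -5.10, -4.47 and -4.24, again with no overlap. AAKO minus CTRL was 0.87 ± 0.19 (1.82-fold, adjusted p = 0.00114) for probe 1 and 1.11 ± 0.24 (adjusted p = 0.000644) for probe 2, and probe 1 gave 0.86 without AAKO CL316243 replicate 6. Each wash batch gave 0.84 for probe 1, called in batch 1 (adjusted p = 0.0459) and not in batch 2 (adjusted p = 0.107). In fed and fasted mice probe 1 gave 0.24 ± 0.19 (adjusted p = 0.844) and 0.04 ± 0.19 (adjusted p = 0.895). Against fed AAKO mice, CL316243 raised probe 1 by 0.74 ± 0.19 (adjusted p = 0.00381), while in CTRL mice the difference was 0.11 ± 0.19 (adjusted p = 0.747). The difference between these responses did not pass the test (0.63 ± 0.27, adjusted p = 0.152), while the step from CL316243 to fasting did differ between genotypes, by -0.83 ± 0.27 (adjusted p = 0.0195) for probe 1, and not for probe 2 (-0.70 ± 0.33, adjusted p = 0.109).

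**Figure D3:**
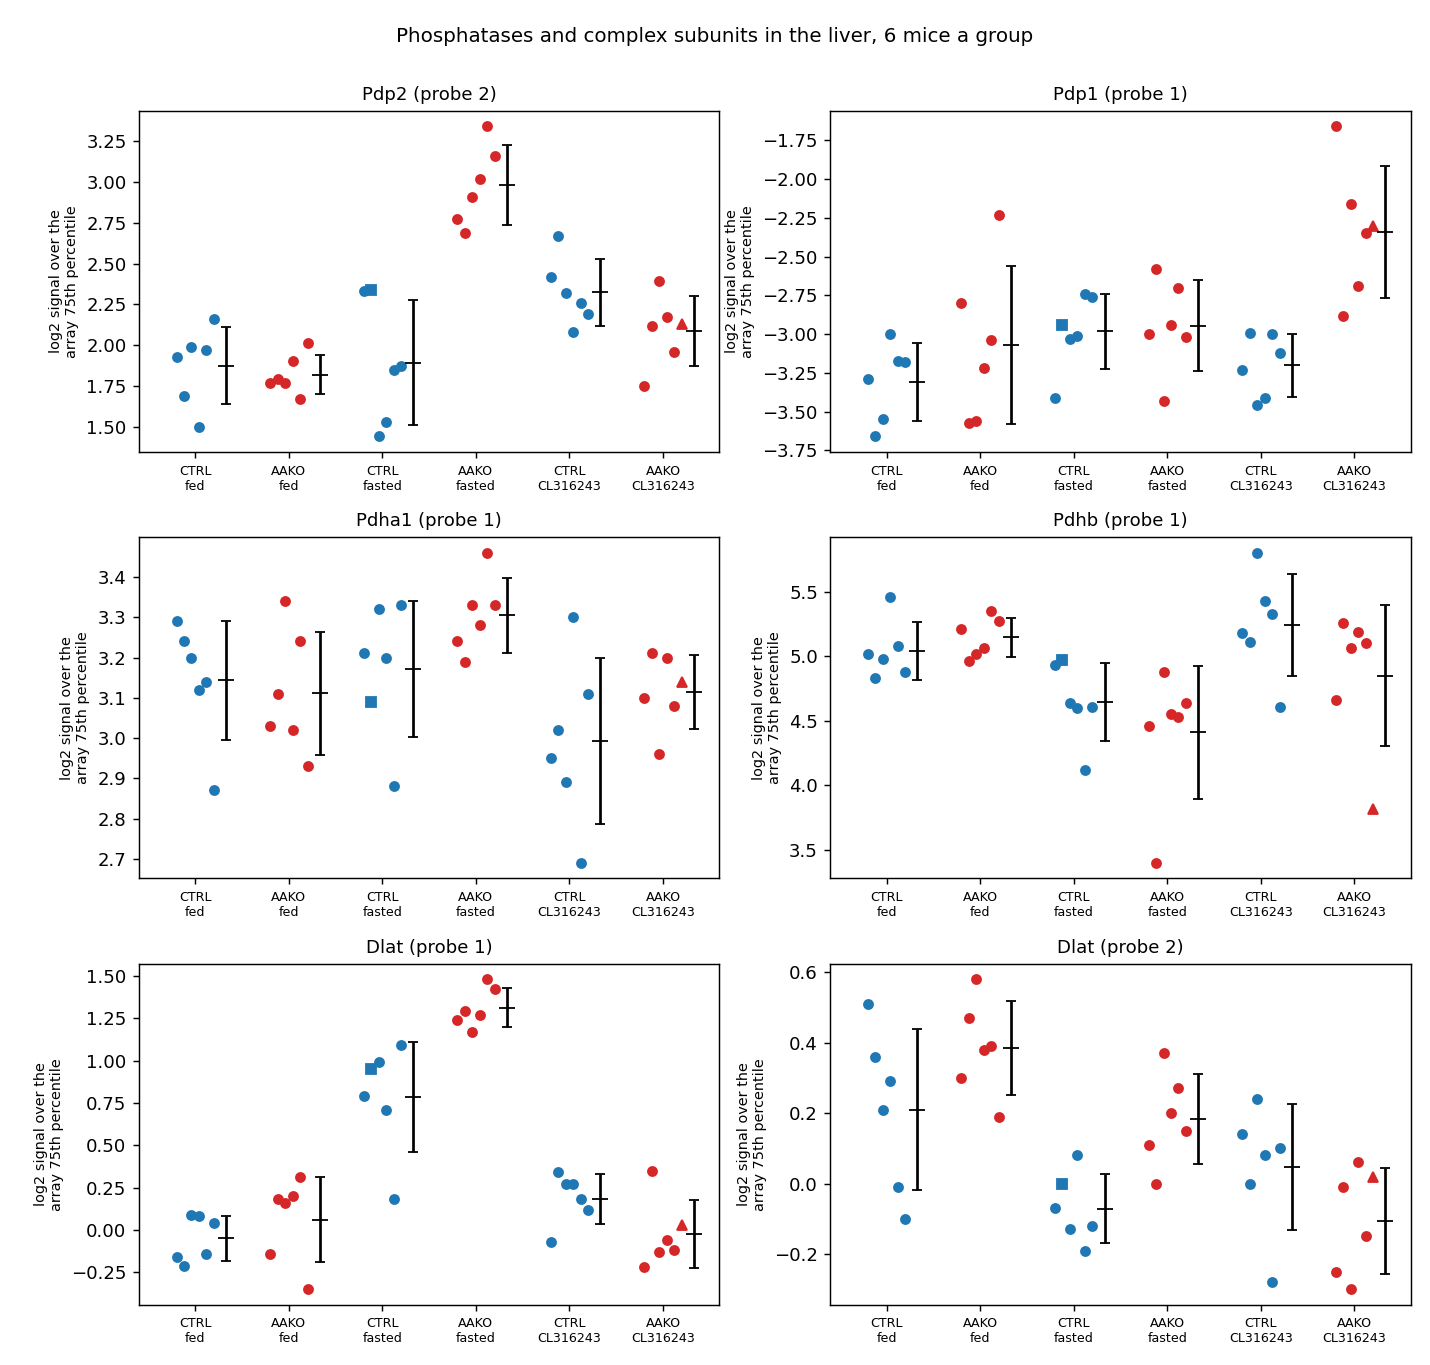
Levels of the phosphatase and subunit probes in each of the 36 livers (log2 relative to the array's 75th percentile), by group, with bars for the group mean ± SD of 6 livers; CTRL in blue and AAKO in red, the square CTRL fasted replicate 2 and the triangle AAKO CL316243 replicate 6. Pdp1 is highest in AAKO CL316243 livers, at -2.88 to -1.66, and Dlat probe 1 in AAKO fasted livers, at 1.17 to 1.48.

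Among the subunits, Pdha1, the catalytic alpha subunit that carries the phosphorylated serines, had no called change by its brighter probe. Probe 1 ran from 2.69 to 3.46 over all 36 livers and was called in none of the 12 comparisons; 2 missed narrowly, fasted minus fed in AAKO mice (0.19 ± 0.09, adjusted p = 0.0569) and fasted minus CL316243 in AAKO mice (0.20 ± 0.09, adjusted p = 0.0528). Probe 2, on an Ensembl transcript, rose with fasting by 0.45 ± 0.15 in CTRL mice (adjusted p = 0.0135) and by 0.48 ± 0.15 in AAKO mice (adjusted p = 0.006). Neither probe was called for the genotype in any condition.

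Pdhb, the beta subunit, fell with fasting in AAKO mice when read by probe 1. Levels were 4.96, 5.13 and 5.35 (lowest, median, highest) in AAKO fed livers and 3.40, 4.54 and 4.88 in AAKO fasted livers. The ranges did not overlap, and the lowest fasted liver stood well apart from the next, which was at 4.46. The difference was -0.74 ± 0.22 (adjusted p = 0.00362). Wash batches 1 and 2 gave -0.84 and -0.63, called only in batch 2 (adjusted p = 0.07 and 0.0274). In CTRL mice the difference was -0.39 ± 0.22 (adjusted p = 0.145). The responses of the genotypes were not called as different (-0.34 ± 0.31, adjusted p = 0.421). Probe 2, on the transcript AK084507, went the other way. It had lowest, median and highest levels of 0.09, 0.62 and 0.91 in AAKO fasted livers against -1.14, -0.63 and -0.23 in CTRL fasted livers, with no overlap. AAKO minus CTRL was 1.18 ± 0.23 (adjusted p = 7.55e-05), and the fasting response differed between genotypes by 1.25 ± 0.33 (adjusted p = 0.00321). Probe 3, on AK011810, was called only for fasted minus CL316243 in CTRL mice, at -0.40 ± 0.13 (adjusted p = 0.0177), which probe 1 also gave (-0.60 ± 0.22, adjusted p = 0.0289). The probe 1 call was lost without any 1 of 5 livers, CTRL fasted replicates 4 and 5 and CTRL CL316243 replicates 3, 4 and 5. In AAKO mice the same step gave -0.46 ± 0.22 (adjusted p = 0.0663) for probe 1, and -0.65 (adjusted p = 0.00504) without AAKO CL316243 replicate 6. A direction for Pdhb in fasted AAKO livers thus depends on the probe.

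Dlat, the acetyltransferase core of the complex, which also holds the docking sites of the kinases, rose with fasting in both genotypes by probe 1. Levels in CTRL mice were -0.21, -0.05 and 0.09 (lowest, median, highest) when fed and 0.18, 0.87 and 1.09 when fasted. In AAKO mice they were -0.35, 0.17 and 0.31 when fed and 1.17, 1.28 and 1.48 when fasted. Every fasted liver was above every fed liver of its genotype, and every AAKO fasted liver was above every CTRL fasted liver. The rise was 0.83 ± 0.12 in CTRL mice (adjusted p = 7.79e-07) and 1.25 ± 0.12 in AAKO mice (adjusted p = 7.93e-11), and AAKO minus CTRL in fasted mice was 0.53 ± 0.12 (adjusted p = 0.00041; 0.54 and 0.51 in the wash batches). The difference between the responses was 0.42 ± 0.17 (adjusted p = 0.0534), which missed the threshold; without CTRL fasted replicate 2 it was 0.46 (adjusted p = 0.0321), and it was called in 7 of 24 fits that left out 1 liver. The step from CL316243 to fasting differed between genotypes by 0.75 ± 0.17 (adjusted p = 0.000799).

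Probe 2 of Dlat, which lies on the same RefSeq transcript, did not rise with fasting. Fasting changed probe 2 by -0.28 ± 0.10 in CTRL mice (adjusted p = 0.0165) and by -0.20 ± 0.10 in AAKO mice (adjusted p = 0.0607, not called). Probe 1 rose in both. AAKO minus CTRL in fasted mice was 0.25 ± 0.10 (adjusted p = 0.0284), in the direction of probe 1, and was called in 8 of 12 fits that left out 1 liver (adjusted p up to 0.0787). CL316243 lowered probe 2 by 0.49 in AAKO mice against fed (adjusted p = 0.000198), with no overlap of ranges. The sign of the genotype difference in fasted mice was the same for both probes. That of the fasting response differed between the probes in both genotypes.

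Probe by probe, 8 of the 20 probes were called higher in AAKO than in CTRL fasted livers and 0 lower, where 50.2% of all 36550 probes were called. After CL316243 it was 3 higher and 3 lower (23.9% of all probes), and in fed mice 0 (0.0985%). With each gene read by its brightest probe the groups of AAKO and CTRL fasted livers did not overlap for 2 of 9 genes, Pdk2 and Dlat, as for 21.3% of all genes.

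**Figure D4:**
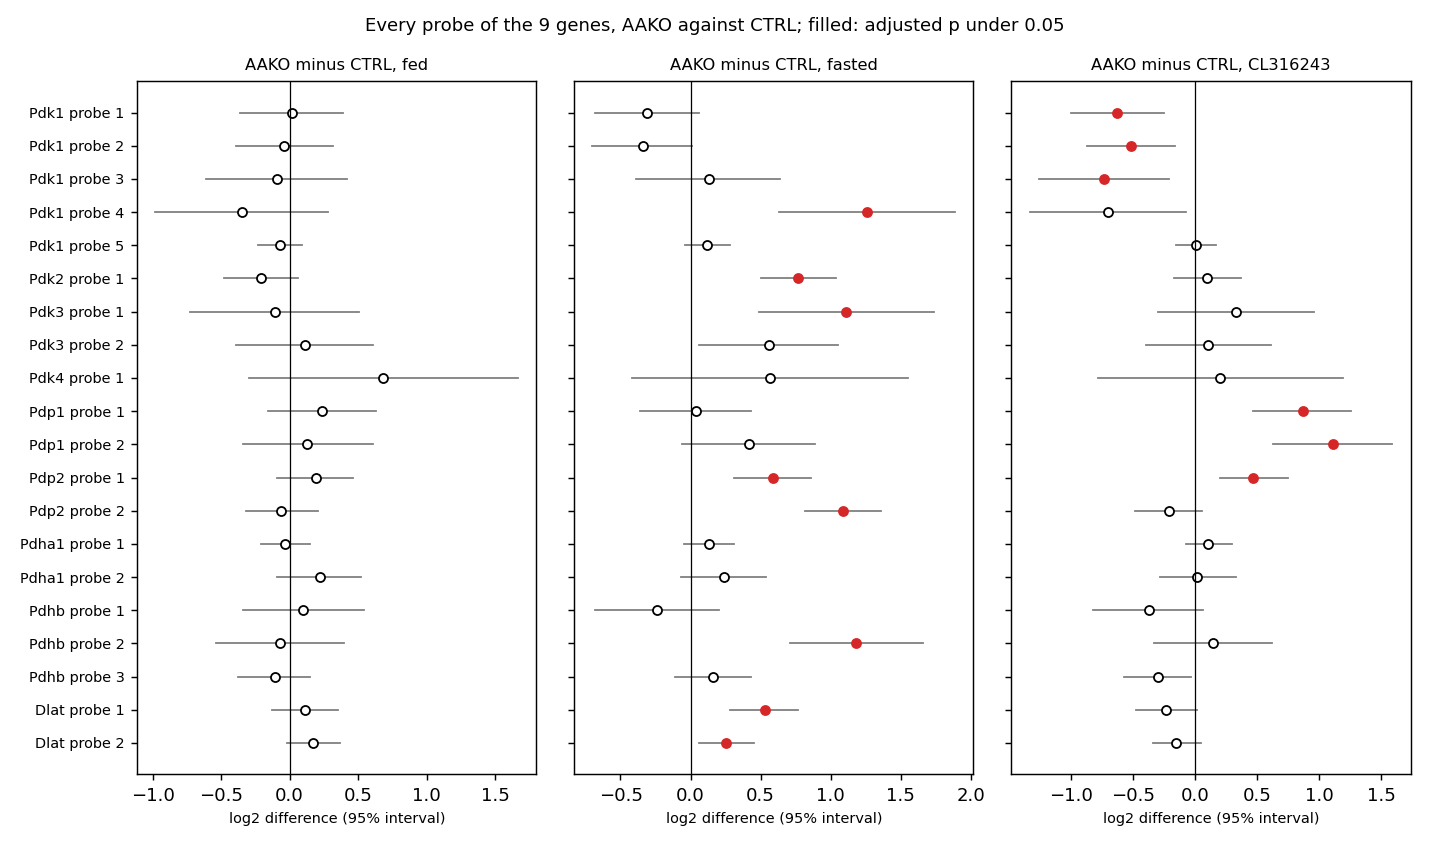
AAKO minus CTRL (log2 difference with its 95% interval) for the 20 probes in fed, fasted and CL316243 livers; filled red points have an adjusted p under 0.05 over 36550 probes. In fasted livers 8 probes are called, all to the right of 0, while in fed livers none is.

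The known regulators and neighbours of these genes were read from lists. Of 14 regulators known to act on Pdk4 or Pdk2, 11 were higher and 3 lower in AAKO than in CTRL fasted livers (median 0.59, against -0.04 over all genes). There, 49.3% of all genes were called, 21.3% higher and 28% lower. Ppargc1b, a coactivator of nuclear receptors, was higher by 1.78 ± 0.29 (adjusted p = 6.76e-06) and Foxo1, a transcription factor held off by insulin, by 1.22 ± 0.16 (adjusted p = 1.32e-07). Esrrg, an estrogen-related receptor, was lower, at -1.24 ± 0.46 (adjusted p = 0.026), and so was Nr0b2, a corepressor, at -1.11 ± 0.42 (adjusted p = 0.0302). After CL316243, 2 of the 14 were higher and 5 lower in AAKO livers, where 13.4% of all genes were called higher and 11.3% lower. Ppara, the receptor itself, was at -1.21 ± 0.13 there (adjusted p = 5.31e-08).

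All 14 PPARalpha targets set beside Pdk4 rose with fasting in CTRL mice (median 1.98, against -0.02 over all genes), whereas in AAKO mice 5 rose and 7 fell (median -0.31, against -0.09). Of the 5 that rose in AAKO mice, Cyp4a10 and Cyp4a14 rose most. Over all genes, fasting called 43.3% in CTRL mice (20.9% higher) and 63.5% in AAKO mice (27.8% higher, 35.7% lower). In fasted mice 12 of 14 were lower in AAKO livers and 1 higher (median -1.80), among them Fgf21, a fasting hormone, at -5.48 ± 0.59 (adjusted p = 3.99e-09) and Vnn1, a pantetheinase, at -4.72 ± 0.24 (adjusted p = 8.91e-16). The 1 that was higher was Angptl4, a lipoprotein lipase inhibitor, at 0.82 ± 0.23 (adjusted p = 0.0041). Over all genes, 49.3% were called between the fasted genotypes, 21.3% higher and 28% lower. After CL316243 14 of 14 were lower in AAKO livers (median -1.40), where 24.7% of all genes were called and 11.3% called lower. CL316243 against fed raised 12 of 14 in CTRL mice, where 10.4% of all genes were called higher. In AAKO mice it raised 1 of 14 and 2 fell, where 31.4% of all genes were called. Beside this list, the fasting differences of Pdk4 were 3.47 and 3.36 in the genotypes, and it had no call for CL316243 over all livers. The list holds targets chosen with earlier results of these data known.

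Of 9 FoxO and glucocorticoid fasting genes, 5 rose and 1 fell with fasting in CTRL mice (median 0.54) and 8 rose and 1 fell in AAKO mice (median 1.61), where 43.3% and 63.5% of all genes were called and the medians over all genes were -0.02 and -0.09. Igfbp1, an insulin-suppressed binding protein, rose by 4.79 ± 0.58 in CTRL (adjusted p = 5.57e-08) and by 4.16 ± 0.58 in AAKO mice (adjusted p = 2.29e-07). Lpin1, a phosphatidate phosphatase and coactivator, rose by 3.28 ± 0.48 in AAKO mice (adjusted p = 4.03e-07). In fasted mice 6 of 9 were higher in AAKO livers and 0 lower (median 0.94), where 49.3% of all genes were called and 21.3% called higher. Lpin1 was at 3.20 ± 0.48 there (adjusted p = 1.33e-06). For CL316243 minus fed, the list's median was -0.41 in CTRL and 0.16 in AAKO mice, beside -0.54 and -1.02 for Pdk4.

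**Figure D5:**
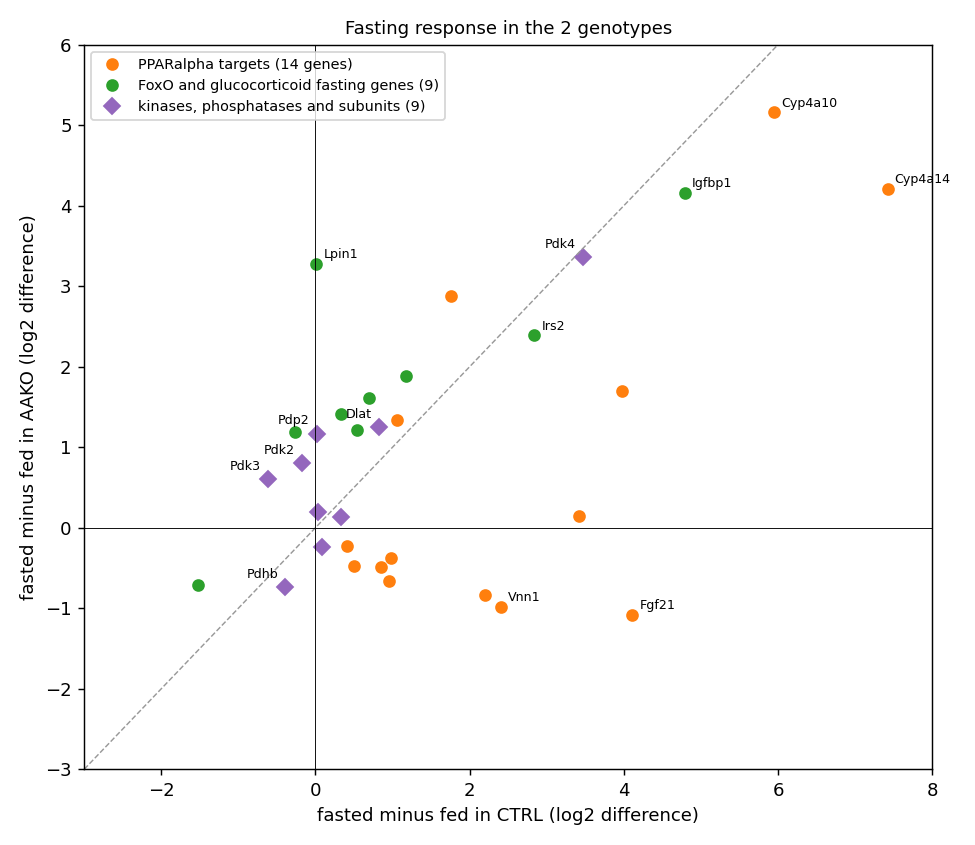
Fasted minus fed (log2 difference) in CTRL mice on the horizontal axis and in AAKO mice on the vertical axis, 1 point per gene: PPARalpha targets in orange, FoxO and glucocorticoid fasting genes in green, the 9 genes described here in purple with Pdp2 read by probe 2; the dashed line marks equal responses. Pdk4, at 3.47 and 3.36, lies near the line, while most PPARalpha targets lie below it, with medians of 1.98 and -0.31.

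Of 9 tested of 10 listed genes for other parts of the complex and its cofactor supply, 1 was higher and 5 lower in AAKO than in CTRL fasted livers (median -0.23, against -0.04 over all genes), where 49.3% of all genes were called. Pdhx, which binds the lipoamide dehydrogenase to the core, was at -1.01 ± 0.09 (adjusted p = 2.58e-10). Slc19a2, a thiamine transporter, was the 1 that was higher (0.42 ± 0.16, adjusted p = 0.0254). Fasting raised Pdpr, a regulator of the phosphatase, by 0.34 ± 0.09 in CTRL (adjusted p = 0.00365) and by 0.23 ± 0.09 in AAKO mice (adjusted p = 0.03). In CL316243 mice 2 of 9 were lower in AAKO livers, where 24.7% of all genes were called and 11.3% called lower. Lipt1, a lipoyltransferase, was among the 2 (-0.37 ± 0.11, adjusted p = 0.01).

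Some carriers that bring pyruvate to the complex were lower in AAKO livers. Of 5 pyruvate transport genes, 2 were lower in AAKO fasted livers, where 49.3% of all genes were called and 28% called lower. They were Mpc1, a subunit of the mitochondrial pyruvate carrier (-0.59 ± 0.08, adjusted p = 3.28e-07), and Slc16a1, a plasma membrane monocarboxylate carrier (-0.75 ± 0.13, adjusted p = 8.44e-06). In CL316243 mice 4 of 5 were lower, where 24.7% of all genes were called and 11.3% called lower. Slc16a1 was at -1.08 ± 0.13 there (adjusted p = 1.59e-07). Fasting raised Slc16a1 in CTRL mice by 1.27 ± 0.13 (adjusted p = 1.11e-09) and in AAKO mice by 0.44 ± 0.13 (adjusted p = 0.00301).

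Of 14 tested of 15 listed genes that make pyruvate or put it to other uses, 7 were higher and 3 lower in AAKO than in CTRL fasted livers (median 0.57, against -0.04 over all genes), where 49.3% of all genes were called and 21.3% called higher. Ldhb, a lactate dehydrogenase subunit, was higher by 2.39 ± 0.33 (adjusted p = 3.64e-07) and Sds, which makes pyruvate from serine, by 1.96 ± 0.21 (adjusted p = 4.38e-09), while Ldha was at -1.27 ± 0.12 (adjusted p = 4.22e-10) and Me1, a malic enzyme, at -0.99 ± 0.19 (adjusted p = 6.79e-05). Pcx, the carboxylase that competes for pyruvate toward glucose, rose by 0.57 ± 0.07 in fasted CTRL mice (adjusted p = 1.79e-07). Among 6 genes of citrate and cytosolic acetyl-CoA, Acly, which splits citrate, fell 3.84-fold with fasting in CTRL mice (adjusted p = 1.63e-09) and 2.15-fold in AAKO mice (adjusted p = 1.09e-05). AAKO livers had more Acly than CTRL livers when fasted (1.21 ± 0.20, adjusted p = 5.52e-06) and less after CL316243 (-1.53 ± 0.20, adjusted p = 7.57e-07). Of the 5 genes of the related branched-chain ketoacid dehydrogenase, its kinase Bckdk was lower in AAKO fasted livers (-0.87 ± 0.12, adjusted p = 6.25e-07) and the core Dbt higher (0.34 ± 0.08, adjusted p = 0.00106).

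Genes with a pattern most like that of a member were ranked by Pearson correlation over the 36 livers, which share arrays and groups, so no p is given. Pdk4 was most like Spry1 (r = 0.923), Sh3glb1 (0.922) and Pdgfra (0.922), and without the liver with muscle transcripts these were 0.931, 0.935 and 0.928. In deviations from the group means its nearest gene was Cpt1b at 0.721, which fell to 0.561 without that liver. Pdk2 was most like Tomm5 (0.886), Pdp1 like Ehd4 (0.805), Dlat like 2310001K24Rik (0.944), Pdk1 like Ugt1a6b (0.872), Pdk3 like Cav2 (0.81), Pdhb like Tsacc (0.81) and Pdha1 like Tmem70 (0.776). Pdp2 probe 1, which holds the TG run, was most like Trim25 at 0.995. In deviations from the group means Trim25 gave 0.992, and the other TG-repeat probes gave up to 0.992 with probe 1. This likeness is one of probe 1 and is not read as one of the Pdp2 transcript.

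RefSeq promoters of mouse build GRCm38.p6 were found for 8 of the 9 genes, in 10 windows, and 250 bases before each start were searched on both strands for short motifs. None of these windows held GTAAACA, the FoxO core (3.17% of 32851 promoters hold it), the DR1 form of the PPAR response element, which is a half-site repeated after 1 base (0.0335%), AGGTCA, the half-site itself (14%), or TCAAGGTCA, the estrogen-related receptor site (0.387%), which holds AGGTCA too. CCAAT occurred in 33.8% of all promoters and in windows of 5 of these genes. The windows of Pdk4, Pdk2 and Pdp2 are printed as examples of genes that rose in fasted livers, Pdk4 in both genotypes and the others in AAKO mice. They lie at chr6:5496279-5496528 on the minus strand, chr11:95041372-95041621 on the minus strand and chr8:104591222-104591471 on the plus strand, each ending just before the start of transcription. Capitals mark the motifs found, read on either strand. CCAAT occurred in all 3 printed windows. Pdk2 has a second window, which is not printed and holds no CCAAT. Dlat also rose with fasting in both genotypes by probe 1. Its window is not printed and holds no CCAAT. The Pdp2 window also held TGACG, a cAMP response half-site present in 17.8% of all promoters, and GGGCGG, a GC box present in 32.7%. AGAACA, a glucocorticoid receptor half-site, was searched too and lay in a Pdk1 window alone (16.1% of all promoters). A match is a description of letters and no evidence of binding.
Pdk4 promoter: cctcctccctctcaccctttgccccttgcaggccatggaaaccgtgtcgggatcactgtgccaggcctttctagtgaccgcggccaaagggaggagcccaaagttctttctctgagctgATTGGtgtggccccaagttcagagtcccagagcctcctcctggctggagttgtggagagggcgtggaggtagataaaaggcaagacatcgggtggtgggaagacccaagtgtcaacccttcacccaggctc
Pdk2 promoter: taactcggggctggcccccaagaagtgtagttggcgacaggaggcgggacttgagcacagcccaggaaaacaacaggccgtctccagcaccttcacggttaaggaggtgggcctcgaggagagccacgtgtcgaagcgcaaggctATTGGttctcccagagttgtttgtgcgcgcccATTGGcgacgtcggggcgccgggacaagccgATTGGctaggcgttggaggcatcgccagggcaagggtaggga
Pdp2 promoter: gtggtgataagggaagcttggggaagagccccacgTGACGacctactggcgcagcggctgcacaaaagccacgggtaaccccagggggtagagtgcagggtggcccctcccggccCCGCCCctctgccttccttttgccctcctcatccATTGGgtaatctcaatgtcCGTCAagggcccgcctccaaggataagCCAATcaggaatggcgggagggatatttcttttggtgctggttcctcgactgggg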

How the data were processed

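Liver RNA (200 ng) from 36 mice was hybridised to one-colour Agilent arrays, 1 per mouse. Per the file headers, the authors' scanner files come from Agilent Feature Extraction 10.10.1.1 and hold processed signal intensity, already background-subtracted by that software. The authors' deposited value table is on the log2 scale (36898 probes; each column correlated best with its own array, r 0.99881 to 0.99981; column medians 6.878 to 7.014, equal within each group); its normalization is not given in the sources used here, and it served as an alternative.

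The processed intensity was put on the log2 scale, minus log2 of each array's 75th percentile over non-control spots; outlier-flagged spots were left out and spots of a probe averaged. A gene was read by its brightest probe. Probes well above background on at least 5 of 6 arrays of 1 group were kept. A model of the group means plus wash batch was fitted (limma 3.58.1, R 4.3.3, lmFit, eBayes; two-sided, Benjamini-Hochberg over 24251 genes). The scripts were tested on simulated data. The members and lists were chosen with earlier results of these data known. Named list genes are among the 2 highest and 2 lowest called of each list in AAKO minus CTRL (fasted, CL316243) and fasted minus fed; the genes most like a member are the 3 highest by r. Alternatives changed 1 choice at a time. Replicates are separate mice, and the number of arrays limits the precision.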

Additional observations from a re-analysis of the deposited data

Results flagged for a closer look

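In 6 of 120 groups of 6 livers, 1 liver lay far from the rest of its group, where chance gives about 1 in 20. Pdk4 in AAKO CL316243 replicate 6 was at 0.94 with the nearest liver at -1.76, in the liver that carried muscle transcripts. Pdk4 in CTRL CL316243 replicate 5 was at -2.37 (nearest -1.69) and Pdk2 in AAKO CL316243 replicate 2 at 3.20 (nearest 2.65). Pdhb probe 1 in AAKO fasted replicate 2 was at 3.40 (nearest 4.46), and Pdhb probe 3 in CTRL fed replicate 4 at 1.96 (nearest 1.47). Pdk3 probe 1 in AAKO fed replicate 5 was at -5.62 (nearest -4.75).

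The genotypes differed in their response for 12 probe comparisons. The fasting response differed for Pdk2 (0.98), Pdk3 probe 1 (1.22), Pdk1 probe 4 (1.61), Pdhb probe 2 (1.25) and Pdp2 probe 2 (1.15). The step from CL316243 to fasting differed for Pdk2 (0.67), Pdk1 probe 4 (1.96), Pdhb probe 2 (1.04), Pdp2 probe 2 (1.30), Dlat probe 1 (0.75), Dlat probe 2 (0.40) and Pdp1 probe 1 (-0.83).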

How the results depend on the processing

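Depth of signal limits Pdk3 most, whose probes were well above background on 24 and 13 of 36 arrays. No call of a member changed with slide as a random block or with replicate number and wash batch as blocks; the replicate numbers did not pair the livers (mean r of deviations -0.0009 over 90 same-numbered pairs), and Pdk4 gave 3.47 for fasted minus fed in CTRL mice with that replicate block.

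Directions turned with the probe, an alternative chosen after seeing the data: Dlat probe 2 gave -0.12 (fasted minus CL316243, CTRL), -0.20 (fasted minus fed, AAKO) and -0.28 (CTRL); Pdhb probe 2 gave 1.18 (AAKO minus CTRL, fasted), 1.30 and 0.27 (fasted minus CL316243, AAKO and CTRL), 1.52 (fasted minus fed, AAKO) and 1.25 (fasting interaction), and probe 3 gave 0.22 for fasted minus fed in AAKO; Pdk1 probe 4 gave 1.26, 1.87 and 1.61 for AAKO minus CTRL in fasted mice, fasted minus fed in AAKO and the interaction, and probe 5 gave 0.01 (AAKO minus CTRL, CL316243) and 0.18 (fasted minus fed, AAKO); Pdp2 by its other probe gave -0.21 (AAKO minus CTRL, CL316243). With the mean over all probes of a gene, fasted minus fed in AAKO was 0.33 for Pdhb and 0.43 for Pdk1. Cs, named for fasted minus fed in CTRL, turned to -0.01. Mpc1 and Tsc22d3 turned to 0.00 and 0.01, each in 1 of the comparisons in which it was named. The cause was not tested.

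Over all genes, wash batch 1 alone (fewer livers) called 3014 (CL316243 genotype comparison, 6002 with all livers), 1 (fed, 19), 4717 and 2127 (CL316243 minus fed, AAKO and CTRL), 4545 (fasted minus CL316243, CTRL), 5920 (fasted minus fed, CTRL) and 460, 4896 and 5150 (interactions with CL316243, fasting against CL316243 and fasting); wash batch 2 alone called 1562 (CL316243 genotype comparison), 7804 (fasted), 0 (fed), 2280 and 1602 (CL316243 minus fed, AAKO and CTRL) and 476, 3087 and 3127 (the interactions in the same order). Fitting only the groups compared called 3 in fed mice. Of the 9 genes, wash batch 1 alone called 1 (CL316243 genotype comparison), 2 (fasted), 0 (CL316243 minus fed, CTRL), 1 (fasted minus CL316243, CTRL), 3 (fasted minus fed, AAKO), 1 (interaction of fasting against CL316243) and 1 (fasting interaction); wash batch 2 alone called 1 (CL316243 genotype comparison), 0 and 0 (CL316243 minus fed, AAKO and CTRL), 1 and 1 (the same interactions). The mean over probes called 5 (CL316243 minus fed, AAKO), 1 (CL316243 interaction) and 5 (fasting against CL316243); normexp called 0 and Pdp2 by its other probe gave 2 for CL316243 minus fed in CTRL; the authors' deposited table gave 4 for the fasting interaction. Leaving out each liver in turn gave 9 to 36 genes in fed mice, and of the 9 genes 1 to 2 for CL316243 minus fed in CTRL, 0 to 1 for the CL316243 interaction and 1 to 3 for the fasting interaction. Under normexp, 31.4% of the calls for fasted minus CL316243 in AAKO mice were higher, against 43.6%.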
